A study of Mus musculus with 12 samples.

Results

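The Toll-like receptor (TLR) adaptors and the kinases directly below them were followed in bone marrow-derived macrophages (BMDMs), as 10 genes taken by symbol from the count table. They are the co-receptor Cd14, the adaptors Myd88, Tirap, Ticam1 and Ticam2, the kinases Irak4, Irak1, Irak2 and Irak3, and the ubiquitin ligase Traf6. All 10 were among the 12960 genes of the table, and all 10 were among the 10822 genes that passed the low-count filter. RNA sequencing covered BMDMs of WT mice and of mice lacking the AMPK β1 subunit in the whole body (AMPKβ1-/-), differentiated from marrow with L929-conditioned medium as a source of M-CSF. Cells of each genotype were kept for 6 h with PF-06409577 (PF) at 10 μM, a small-molecule AMPK activator selective for β1-containing complexes, or with 0.1% DMSO as vehicle. Each of the 4 groups had 3 libraries, and the comparisons ask whether AMPK activation changed inflammatory genes and whether this needed the β1 subunit. The labels do not say whether the 3 libraries of a group came from separate mice, so the p-values measure the spread between these libraries, which may be technical. No TLR ligand was given, so the levels are those of macrophages at rest or with PF alone.

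TLRs recognise microbial molecules at the cell surface and in endosomes and signal through adaptors that carry a TIR domain. Tirap recruits Myd88 to receptors at the plasma membrane, and Myd88 assembles a complex of Irak4, Irak1 and Irak2 that activates Traf6 and, through it, NF-κB and MAP kinases. Ticam1 (TRIF), with Ticam2 (TRAM) as its bridge to TLR4, carries the other arm, which leads to IRF3 and type I interferon. Irak3 (IRAK-M) is found mostly in macrophages and restrains the Myd88 arm, while Cd14 presents lipopolysaccharide to TLR4 and helps take it into endosomes.

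Library totals ran from 8935609 to 14358180 counts, and levels are given as CPM, TMM-normalized counts scaled to library totals. A gene listed at 0 allows up to 3 counts, or 0.196 to 0.321 CPM, and all members lay far above this floor. Prkab1, the gene removed in AMPKβ1-/- mice, had 406, 479 and 455 counts in WT libraries with vehicle against 92, 118 and 57 in AMPKβ1-/- libraries with vehicle. With PF it had 489, 399 and 490 counts in WT and 108, 120 and 85 in AMPKβ1-/- libraries, so every library matched its genotype label. Unlike the other levels, those of cell type markers are CPM scaled to library totals alone, without TMM. All 8 macrophage markers were detected, and their summed level was 23795 to 26933 CPM in WT libraries and 26274 to 30103 CPM in AMPKβ1-/- libraries. TMM factors were 0.881 to 0.995 in WT and 1.05 to 1.09 in AMPKβ1-/- libraries, so marker sums of the genotypes are not on the scale of the member levels. Of the 8 granulocyte markers 5 were listed, at 1.20 CPM or less in sum, and none of 6 lymphoid markers was listed. All 5 fibroblast markers were listed, at a summed 0.867 to 1.74 CPM in WT and 1.72 to 9.06 CPM in AMPKβ1-/- libraries. Of 5 dendritic cell markers 3 were listed and summed to at most 0.941 CPM, and of 4 mast cell and basophil markers Kit alone was listed. Kit was at 1.04 to 1.47 CPM in WT with vehicle, 2.33 to 3.90 CPM in WT with PF, 0.448 to 0.696 CPM in AMPKβ1-/- with vehicle and 0.836 to 0.925 CPM in AMPKβ1-/- with PF, so every PF library lay above every vehicle library of its genotype. The part of these differences in the results was not tested. In bulk RNA, fewer cells of a type and less RNA per cell cannot be told apart.

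RefSeq promoters matched 8 of the 10 members, all but Cd14 and Ticam2, and the 250 bases before each start were searched for motifs on both strands (build GRCm38.p6). Promoters of 4 members are given because these genes represent the different outcomes. Ticam1 and Irak3 fell with PF in WT BMDMs, Irak2 was lower in AMPKβ1-/- BMDMs with either treatment, and Irak1 passed the test in no comparison. Capitals mark matches to the AP-1, PU.1, ETS, SP1, E-box, TATA or NF-κB motif, and the windows run 5′ to 3′ along the gene's strand.

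Ticam1, chr17:56276768-56277017, minus strand: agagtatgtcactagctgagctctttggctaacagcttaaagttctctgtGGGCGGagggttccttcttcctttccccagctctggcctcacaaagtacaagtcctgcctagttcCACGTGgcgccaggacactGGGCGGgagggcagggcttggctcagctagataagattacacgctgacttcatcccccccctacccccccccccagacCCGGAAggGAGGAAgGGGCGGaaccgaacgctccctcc

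Irak3, upstream start, chr10:120202131-120202380, minus strand: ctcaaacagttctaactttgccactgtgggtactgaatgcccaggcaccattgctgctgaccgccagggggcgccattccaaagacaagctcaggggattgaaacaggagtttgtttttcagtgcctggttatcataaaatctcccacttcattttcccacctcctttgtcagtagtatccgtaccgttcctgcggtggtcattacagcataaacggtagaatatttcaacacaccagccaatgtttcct

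Irak2, chr6:113638217-113638466, plus strand: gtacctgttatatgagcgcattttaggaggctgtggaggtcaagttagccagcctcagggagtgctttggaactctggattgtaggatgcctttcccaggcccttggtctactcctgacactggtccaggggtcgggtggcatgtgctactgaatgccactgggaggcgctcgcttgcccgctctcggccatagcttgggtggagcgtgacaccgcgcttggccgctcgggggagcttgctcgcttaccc

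Irak1, chrX:74023919-74024168, minus strand: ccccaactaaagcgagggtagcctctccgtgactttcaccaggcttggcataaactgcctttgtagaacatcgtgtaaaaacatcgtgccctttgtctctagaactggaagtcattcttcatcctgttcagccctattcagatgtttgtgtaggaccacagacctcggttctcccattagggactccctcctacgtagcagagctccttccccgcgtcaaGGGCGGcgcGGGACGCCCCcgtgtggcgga

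The Ticam1 window held 3 SP1 matches, 1 ETS match, 1 PU.1 match and 1 E-box match, and its last bases lie in the first exon of the GENCODE model. The windows of Irak2 and of the upstream start of Irak3 held no match, and that of Irak1 held 1 SP1 match and 1 NF-κB match. The window of the downstream start of Irak3, not printed, held 2 SP1 matches. No other member's window searched held an NF-κB match, and none held an AP-1 match. Such matches are common among the 32851 promoter windows of the same length. The letters searched for SP1 were GGGCGG, found in 32.7% of all windows. For PU.1 they were GAGGAA, found in 23.3% of the windows, and the ETS letters CCGGAA were found in 12.03% of them. The TATA box was taken as TATAAA (12.4% of windows) and the E-box, by contrast, as CACGTG (6.02% of windows). AP-1 sites were searched as TGANTCA and found in 6.75% of windows, and NF-κB sites in 7.25%. No motif overlapped another in the 4 windows given, and a match describes letters only.

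Per kilobase of transcript, Cd14 stood far above the other members, and the other 9 followed in an order that hardly changed between groups. In WT BMDMs with vehicle, Cd14 averaged 692 ± 56.5 CPM per kb (SD, n = 3), followed by Myd88 at 94.97 ± 4.88 CPM per kb. Irak1 and Irak2 came next at 39.6 ± 1.56 and 35.6 ± 1.55 CPM per kb. Ticam1 (22.95 ± 1.498), Irak4 (19.8 ± 1.30) and Irak3 (14.5 ± 0.375 CPM per kb) lay in the middle of the order. Ticam2 (9.06 ± 0.755), Tirap (5.74 ± 0.220) and Traf6 (4.70 ± 0.266 CPM per kb) were the least abundant. The 3 libraries of each gene lay apart from those of its neighbour in the order at every step in this group. Ticam1 was the member whose place moved most, from rank 5 in WT with vehicle to rank 6 in WT with PF and rank 7 in both AMPKβ1-/- groups. Libraries of neighbours overlapped at 3 steps only: Irak4 and Ticam1 with PF in WT, Tirap and Traf6 with PF in WT, and Irak3 and Ticam1 with vehicle in AMPKβ1-/- BMDMs.

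**Figure D1:**
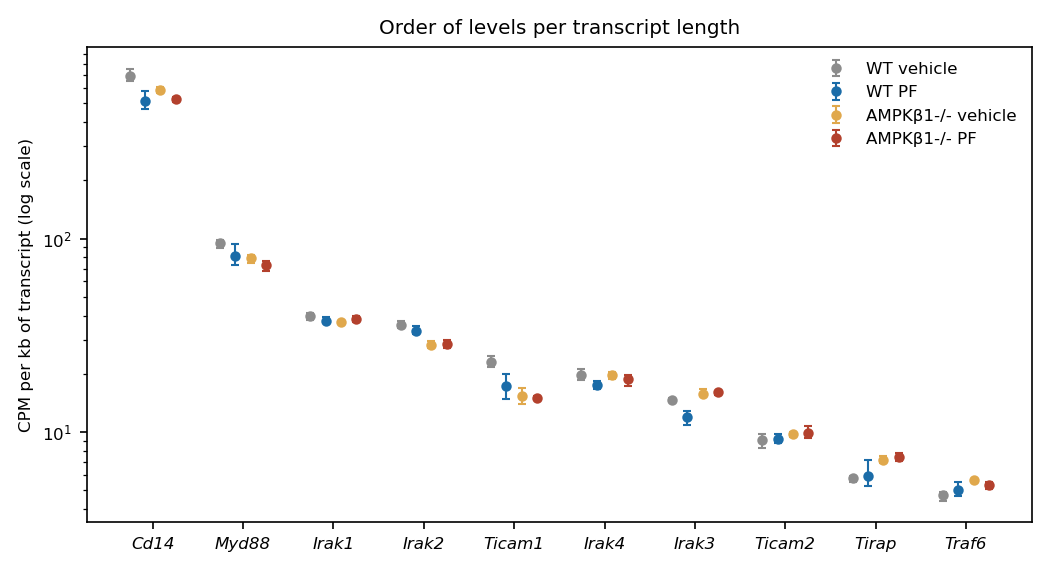
Level of the 10 members in CPM per kb of transcript (log axis), in the order of WT BMDMs with vehicle. Points are means of 3 libraries and bars run from the lowest to the highest library. Cd14 lies near 692 CPM per kb and Traf6 near 4.70 CPM per kb in WT BMDMs with vehicle, and the Ticam1 points of the AMPKβ1-/- groups lie below those of Irak4 and Irak3.

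PF lowered 3 of the 10 members in WT BMDMs and raised none. Cd14, Ticam1 and Irak3 fell, by 25.9%, 24.9% and 17.4%. Over all genes tested, 8.95% were lower and 6.99% were higher with PF in WT BMDMs at an adjusted p below 0.05 (edgeR's quasi-likelihood test, Benjamini-Hochberg adjustment over the 10822 genes). The median log2 fold change was -0.13 over the 10 members and 0.0048 over all genes tested. No member passed the study's stricter threshold for a differentially expressed gene, an absolute log2 fold change above 0.8 as well, which 1.52% of all genes tested did.

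Cd14, the co-receptor, was at 1243, 1089 and 1076 CPM in the 3 WT libraries with vehicle and at 949, 808 and 766 CPM in those with PF. In AMPKβ1-/- BMDMs it was at 954, 925 and 1001 CPM with vehicle and at 839, 875 and 881 CPM with PF. Every PF library of a genotype lay below every vehicle library of that genotype, and the WT libraries with vehicle were the highest of all. The log2 fold change with PF was -0.43 ± 0.087 (SE, n = 3 per group) in WT, with an adjusted p of 0.00664 by edgeR. Cd14 kept an adjusted p below 0.05 with each WT library left out in turn, but not in a fit to the 2 WT groups alone (adjusted p = 0.0545 by edgeR). In AMPKβ1-/- BMDMs the log2 fold change was -0.15 ± 0.087, with an adjusted p of 0.982 by edgeR and a 95% interval of -0.33 to 0.03.

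Ticam1, the adaptor of the interferon-inducing arm, was at 73.7, 65.0 and 67.4 CPM in WT libraries with vehicle and at 59.8, 50.6 and 44.4 CPM with PF. In AMPKβ1-/- libraries it was at 50.5, 44.7 and 41.9 CPM with vehicle and at 46.1, 44.1 and 44.8 CPM with PF. The WT vehicle libraries were thus the highest, and the 6 AMPKβ1-/- libraries were all at 50.5 CPM or less whatever the treatment. With PF it fell by 0.41 ± 0.106 on the log2 scale in WT (SE, n = 3 per group, adjusted p = 0.0208 by edgeR), against a log2 change of -0.02 ± 0.108 in AMPKβ1-/- BMDMs. The call in WT did not hold without vehicle library 1 (adjusted p = 0.0794), vehicle library 3 (0.0511), PF library 2 (0.0775) or PF library 3 (0.114, all by edgeR). Nor did it hold in a fit to the 2 WT groups alone (adjusted p = 0.0735 by edgeR) or with the trend in GC content and length removed, where the log2 change was -0.19 (adjusted p = 0.135 by edgeR).

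Myd88, the adaptor shared by most TLRs and the IL-1 receptor family, was at 192, 175 and 191 CPM in WT with vehicle and at 184, 149 and 144 CPM with PF. The first PF library lay among the vehicle libraries and the other two below them. The log2 change in WT was -0.23 ± 0.094 (SE, n = 3 per group, adjusted p = 0.0988 by edgeR). Without PF library 1 it was -0.35 with an adjusted p of 0.00896, and 3242 genes were then called in all, against 1725. None of the other alternative fits called Myd88 in WT. Its log2 change was -0.15 without PF library 3 (adjusted p = 0.382 by edgeR). With the trend in GC content and length removed it was -0.11 (adjusted p = 0.343 by edgeR). In AMPKβ1-/- libraries Myd88 was at 162, 146 and 158 CPM with vehicle and at 145, 151 and 133 CPM with PF, and these groups overlapped.

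Tirap, which brings Myd88 to the membrane, was at 25.2, 26.7 and 27.2 CPM in WT with vehicle and at 24.01, 24.6 and 32.8 CPM with PF. In AMPKβ1-/- libraries it was at 31.7, 32.9 and 34.3 CPM with vehicle and at 35.8, 32.6 and 34.0 CPM with PF. PF library 3 of WT was the single WT library at the level of the AMPKβ1-/- libraries. Its log2 change with PF was 0.05 in each genotype, with 95% intervals of -0.20 to 0.29 in WT and -0.19 to 0.29 in AMPKβ1-/- BMDMs.

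Ticam2, the bridge between TLR4 and Ticam1, was at 38.7, 40.9 and 34.6 CPM in WT with vehicle and at 37.6, 36.9 and 41.1 CPM with PF. It was at 40.7, 39.6 and 42.2 CPM in AMPKβ1-/- BMDMs with vehicle and at 39.2, 39.8 and 45.3 CPM with PF. All 4 groups overlapped, and the log2 change with PF was 0.02 in each genotype. Reads of Ticam2 are uncertain, because its gene model shares 14299 bases on the same strand with Tmed7, and how the quantification divided them was not tested.

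**Figure D2:**
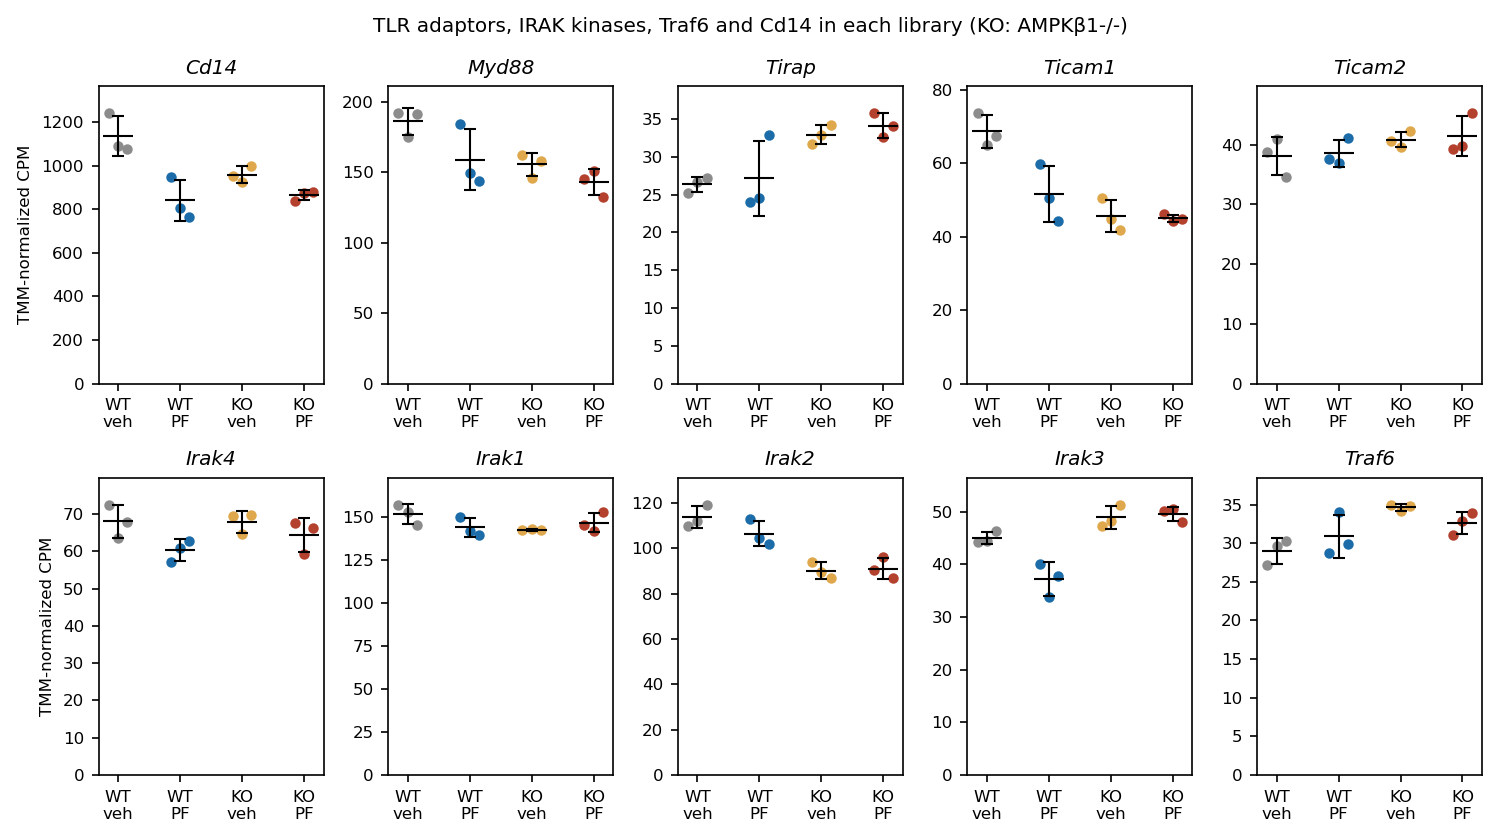
TMM-normalized CPM of each member in each of the 12 libraries (axes from 0, KO: AMPKβ1-/-). Points are libraries, the black line is the mean of 3 and the bar is the SD. Cd14, Ticam1 and Irak3, and also Irak4, which was not called, have all WT PF points below all WT vehicle points. Irak2 has all AMPKβ1-/- points below all WT points. The share of all genes with groups apart in this way was not counted for either comparison.

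Irak3, the restraining kinase-like member, was at 44.3, 44.5 and 46.4 CPM in WT with vehicle and at 40.0, 33.8 and 37.8 CPM with PF. In AMPKβ1-/- libraries it was at 47.2, 48.2 and 51.3 CPM with vehicle and at 50.2, 50.4 and 48.0 CPM with PF. The WT libraries with PF were therefore the lowest 3 of the 12, and the 6 AMPKβ1-/- libraries the highest. In WT it fell by 0.28 ± 0.086 on the log2 scale (SE, n = 3 per group, adjusted p = 0.0419 by edgeR), and in AMPKβ1-/- BMDMs the change was 0.02 ± 0.084. The WT call is close to the threshold: it did not hold with DESeq2's size factors (adjusted p = 0.0517), with library size alone (0.104) or without the low-count filter (0.0625). Nor did it hold without WT vehicle library 1 (adjusted p = 0.0870), 2 (0.0559) or 3 (0.105), or without PF library 2 (0.155) or 3 (0.122), or in a fit to the 2 WT groups alone (0.156, all by edgeR).

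Irak4, the kinase that starts the cascade, was at 72.6, 63.7 and 67.9 CPM in WT with vehicle and at 57.3, 61.0 and 62.9 CPM with PF. The PF libraries lay just below the vehicle libraries, and the log2 change was -0.17 ± 0.084 (SE, n = 3 per group, adjusted p = 0.158 by edgeR). In AMPKβ1-/- libraries it was at 69.5, 64.6 and 69.8 CPM with vehicle and at 67.6, 59.2 and 66.4 CPM with PF, which overlapped.

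Irak1, the kinase that Irak4 phosphorylates, varied least over the 12 libraries. It was at 157, 153 and 146 CPM in WT with vehicle and at 150, 142 and 140 CPM with PF. Its AMPKβ1-/- libraries were at 142, 143 and 143 CPM with vehicle and at 146, 142 and 153 CPM with PF. Its log2 change with PF had 95% intervals of -0.22 to 0.07 in WT and -0.10 to 0.19 in AMPKβ1-/- BMDMs.

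Irak2, the kinase that sustains the response late, was at 109.8, 112 and 119 CPM in WT with vehicle and at 113, 104 and 102 CPM with PF. It was at 94.1, 89.6 and 86.8 CPM in AMPKβ1-/- BMDMs with vehicle and at 90.3, 96.0 and 86.8 CPM with PF. The 6 AMPKβ1-/- libraries lay below the 6 WT libraries, while vehicle and PF overlapped within each genotype. Its log2 change with PF was -0.10 ± 0.075 in WT and 0.01 ± 0.076 in AMPKβ1-/- BMDMs.

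Traf6, the ubiquitin ligase on which the IRAK complex converges, was at 27.2, 29.6 and 30.3 CPM in WT with vehicle and at 28.7, 34.1 and 29.9 CPM with PF. In AMPKβ1-/- libraries it was at 35.0, 34.2 and 34.8 CPM with vehicle and at 31.1, 32.8 and 33.9 CPM with PF. The AMPKβ1-/- vehicle libraries were above every other library. Its log2 change with PF was 0.09 ± 0.095 in WT and -0.09 ± 0.093 in AMPKβ1-/- BMDMs (SE, n = 3 per group).

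In AMPKβ1-/- BMDMs, PF changed none of the 10 members at an adjusted p below 0.05 (edgeR's quasi-likelihood test), and 0 had an unadjusted p below 0.05. Over all genes tested the share called was 0.0554%, so a count of 0 is what the background gives. The median log2 change of the members was -0.0044 and the largest in size was 0.15, for Cd14. The test of the difference between genotypes in the PF response also called 0 of 10 members, against 0.416% of all genes tested. For Ticam1 the response in WT was lower than that in AMPKβ1-/- BMDMs by a log2 difference of -0.39 (95% interval -0.71 to -0.07, adjusted p = 0.268 by edgeR). For Irak3 the difference was -0.29 (-0.55 to -0.04, adjusted p = 0.290 by edgeR), and for Cd14 it was -0.28 (-0.54 to -0.02, adjusted p = 0.315 by edgeR). These 3 members had unadjusted p-values of 0.0208, 0.0265 and 0.0343, so the data do not show, after adjustment, that the falls differ between genotypes. DESeq2 and limma-voom also called 0 members in both comparisons.

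**Figure D3:**
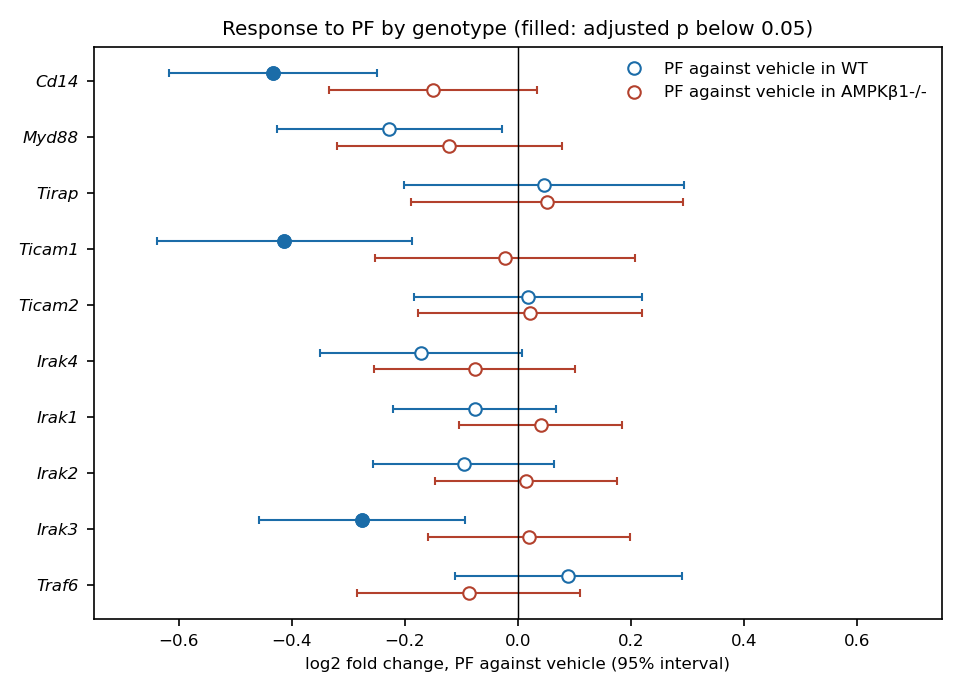
Log2 fold change of each member with PF against vehicle in WT and in AMPKβ1-/- BMDMs, with 95% intervals from edgeR's fit to 12 libraries. Filled points passed an adjusted p of 0.05. Cd14 (-0.43), Ticam1 (-0.41) and Irak3 (-0.28) are filled in WT and no member is filled in AMPKβ1-/- BMDMs.

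With vehicle, 4 of 10 members were lower in AMPKβ1-/- than in WT BMDMs and 2 were higher, against 30.0% lower and 29.7% higher over all genes tested. None met the stricter threshold, which 17.8% of all genes did. Ticam1 was lower by 33.4%, a log2 change of -0.59 ± 0.107 (SE, n = 3 per group, adjusted p = 0.000365 by edgeR). Irak2 was lower by 20.7% (log2 -0.33 ± 0.076, adjusted p = 0.00161 by edgeR). Myd88 was lower by 16.5% (log2 -0.26 ± 0.094, adjusted p = 0.0259 by edgeR) and Cd14 by 15.5% (log2 -0.24 ± 0.087, adjusted p = 0.0242 by edgeR). Tirap was 24.9% higher (log2 0.32 ± 0.115, adjusted p = 0.0256 by edgeR) and Traf6 19.3% higher (log2 0.26 ± 0.094, adjusted p = 0.0287 by edgeR). The AMPKβ1-/- and WT libraries of these 6 members did not overlap. Nor did those of Irak1 (AMPKβ1-/- below WT) and Irak3 (above WT), which were not called. The share of all genes without overlap was not counted. Irak1, Irak3, Irak4 and Ticam2 had log2 changes of -0.09, 0.12, -0.0030 and 0.10 and did not pass the test. Without WT vehicle library 1 the calls of Myd88 (adjusted p = 0.0727), Cd14 (0.111), Tirap (0.0761) and Traf6 (0.101) were lost, which left Ticam1 and Irak2. Without AMPKβ1-/- vehicle library 2 the same 4 members lost their calls (adjusted p of 0.107, 0.0884, 0.0614 and 0.0604 in that order). Single members were also lost without WT vehicle library 3 (Myd88, 0.0654) or AMPKβ1-/- vehicle library 1 (Traf6, 0.0560), and Tirap (0.0752) and Traf6 (0.0646) without AMPKβ1-/- vehicle library 3, all by edgeR.

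With PF in both genotypes, Irak3 was 33.1% higher in AMPKβ1-/- than in WT BMDMs (log2 0.41 ± 0.085, adjusted p = 0.00124 by edgeR), with no overlap of libraries. Tirap was 25.4% higher (log2 0.33 ± 0.114, adjusted p = 0.0280 by edgeR), although 1 WT library lay among the AMPKβ1-/- libraries. Irak2 was lower, with a change of -14.41% (log2 -0.22 ± 0.076, adjusted p = 0.0236 by edgeR), again without overlap. These 2 higher members and 1 lower member compare with 24.1% higher and 22.9% lower over all genes tested, and none met the stricter threshold, which 14.3% of all genes did. Irak2 and Tirap thus passed in both genotype comparisons, with log2 changes of -0.33 and -0.22 for Irak2 and 0.32 and 0.33 for Tirap. The 2 genotype comparisons share no library with each other, but each shares its WT libraries with the PF comparison in WT. Tirap did not pass without WT PF library 1 (adjusted p = 0.120) or 2 (0.117), or without AMPKβ1-/- PF library 1 (0.0971) or 3 (0.0654). Irak2 did not pass without WT PF library 1 (0.0915) or AMPKβ1-/- PF library 1 (0.0718) or 3 (0.0994), and Ticam1 was called lower (log2 -0.29, 0.0303) without WT PF library 3, all by edgeR.

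The genotypes also differed in how counts depended on the GC content of genes, and the members span a wide range of it. Per 10 percentage points of GC, log2 counts rose by 0.72, 0.36 and 0.53 in WT libraries with vehicle relative to the mean of all libraries. The slopes were 0.37, 0.17 and -0.05 in WT with PF, -0.10, -0.36 and -0.34 in AMPKβ1-/- with vehicle, and -0.51, -0.33 and -0.44 in AMPKβ1-/- with PF. The 4 members lower in AMPKβ1-/- BMDMs with vehicle had GC contents of 56.4% (Ticam1), 53.6% (Myd88), 53.1% (Irak2) and 52.5% (Cd14), above the median of 50.2% over genes tested. The 2 higher members, Tirap and Traf6, were at 46.9% and 45.7%. Irak1 was at 52.8%, Irak3 at 49.7%, Irak4 at 49.0% and Ticam2 at 45.1%.

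With the trend in GC content and length removed from each library, Ticam1 remained lower in AMPKβ1-/- BMDMs with vehicle (log2 -0.22, adjusted p = 0.0247 by edgeR) and the other 5 calls did not keep their direction or their call. Myd88 was at 0.06, Cd14 at 0.05, Tirap at -0.02 and Irak2 at -0.09 on the log2 scale. Traf6 turned from 0.26 to -0.34 (adjusted p = 0.0149) and Ticam2 from 0.10 to -0.45 (adjusted p = 0.00246), both called lower by edgeR. With PF in both genotypes, Irak3 remained higher in AMPKβ1-/- BMDMs (log2 0.50, adjusted p = 3.9e-05 by edgeR), Cd14 was called higher (0.31, adjusted p = 0.000399) and Traf6 lower (-0.38, adjusted p = 0.00582). Tirap (0.12) and Irak2 (-0.08) were no longer called there. In the PF comparison within WT, Cd14 (log2 -0.37, adjusted p = 0.000411) and Irak3 (-0.28, adjusted p = 0.0255) kept their calls by edgeR, and Ticam1 did not (-0.19, adjusted p = 0.135). Whether the GC trend is technical was not tested.

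Scaling also mattered between genotypes. With library size alone in place of TMM, the median log2 change of all genes was 0.18 in AMPKβ1-/- against WT with vehicle and 0.15 with PF. All genes then split into 4296 higher and 1600 lower with vehicle, against 3216 and 3249 with TMM, and into 3444 and 1359 with PF, against 2613 and 2481. Among members, 5 were higher and 1 lower with vehicle and 5 higher and 0 lower with PF under that scaling. Ticam1 was lower with vehicle, and Irak3 and Tirap higher with PF, under both scalings.

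**Figure D4:**
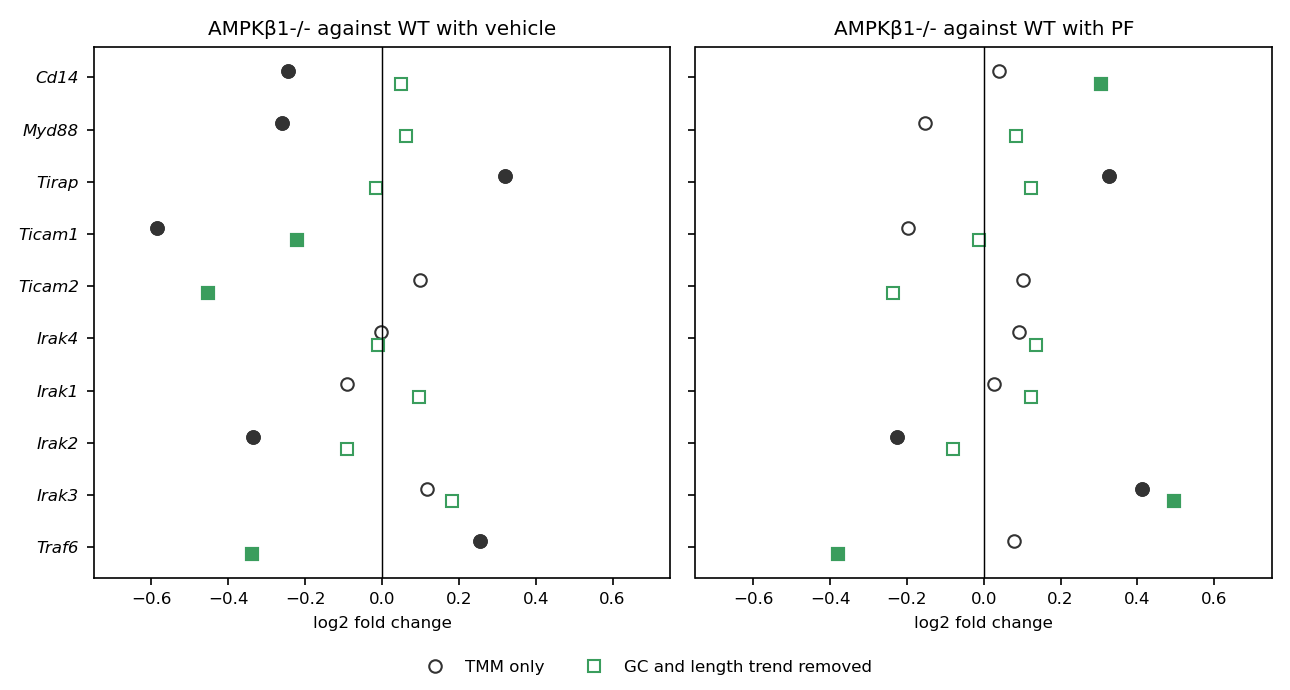
Log2 fold change of each member in AMPKβ1-/- against WT BMDMs with vehicle (left) and with PF (right), with TMM normalization (circles) and after removal of the GC and length trend (squares). Filled symbols passed an adjusted p of 0.05. With vehicle, Ticam1 is filled on the same side in both (-0.59 and -0.22), and Traf6 is filled on opposite sides (0.26 and -0.34); with PF, Irak3 is filled at 0.41 and 0.50.

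The genes around these members gave a mixed picture with PF in WT BMDMs. Of 15 TLRs and co-receptors tested, 1 rose and 3 fell. The counts of this list and of those that follow are read against 6.99% higher and 8.95% lower over all genes tested. Calls with the trend in GC content and length removed are read against 361 higher and 434 lower of the 10822 genes tested. Tlr13, an endosomal sensor of bacterial ribosomal RNA, rose by 0.63 ± 0.140 on the log2 scale, from a mean of 153 to 237 CPM. Tlr9, the sensor of unmethylated CpG DNA, fell by 0.65 ± 0.107, from 127 to 81.0 CPM. Tlr2, the receptor for bacterial lipoproteins, fell by 0.39 ± 0.078, from 273 to 209 CPM, and Unc93b1, which carries TLRs to endosomes, fell by 0.26 ± 0.073. Adjusted p-values of these 4 genes by edgeR ran from 0.00227 to 0.0270, and once the trend in GC content and length was taken out, Tlr13 (log2 0.28), Tlr9 (-0.42) and Tlr2 (-0.41) stayed called and Unc93b1 (-0.03) did not. The median log2 change of the list was 0.31, and -0.03 with the trend removed. Of 4 IL-1 family receptors tested, 0 were called.

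Below Traf6, 1 of 14 genes of the ubiquitin and TAK1 step rose and 3 fell. Map3k7, which encodes TAK1, rose by 0.60 ± 0.156, while Rnf31 and Rbck1, subunits of the linear ubiquitin ligase, fell by 0.39 ± 0.097 and 0.35 ± 0.097, and the kinase Map3k3 by 0.28 ± 0.090 on the log2 scale. None of these 4 kept its call with the GC trend removed. Below Ticam1, 2 of 10 genes fell and 0 rose: Ikbke, a kinase of IRF3, by 0.50 ± 0.094 and Irf3 itself by 0.34 ± 0.090. Ikbke kept its call with the trend removed (log2 -0.32) and Irf3 did not (-0.12).

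Among 14 inhibitors of the pathway, 3 fell and 0 rose with PF in WT. They were Dusp1, a MAP kinase phosphatase, at log2 -0.46 ± 0.110, Zc3h12a, an endonuclease that degrades cytokine mRNAs, at -0.39 ± 0.096, and Nfkbia, which encodes IκBα, at -0.30 ± 0.082. With the trend removed Nfkbia alone was called (log2 -0.22). Of 8 genes at the IKK and NF-κB end, 4 fell and 1 rose, against 8.95% lower and 6.99% higher over all genes tested. Nfkb2 (-0.46 ± 0.092), Relb (-0.45 ± 0.098) and Rela (-0.34 ± 0.092), all NF-κB subunits, were among those that fell, and so was Nfkb1 (-0.25), which the naming rule left out and which is given because it completes the count. Chuk, which encodes IKKα, rose by 0.72 ± 0.224. Of Nfkb2, Relb, Rela and Chuk, Nfkb2 alone was called with the trend removed (log2 -0.19). In AMPKβ1-/- BMDMs PF changed 0 genes in each of the 6 lists, and the difference between genotypes was called for 0 genes in each. Over all genes tested the shares called were 0.0554% and 0.416%, so counts of 0 are near what the background gives.

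**Figure D5:**
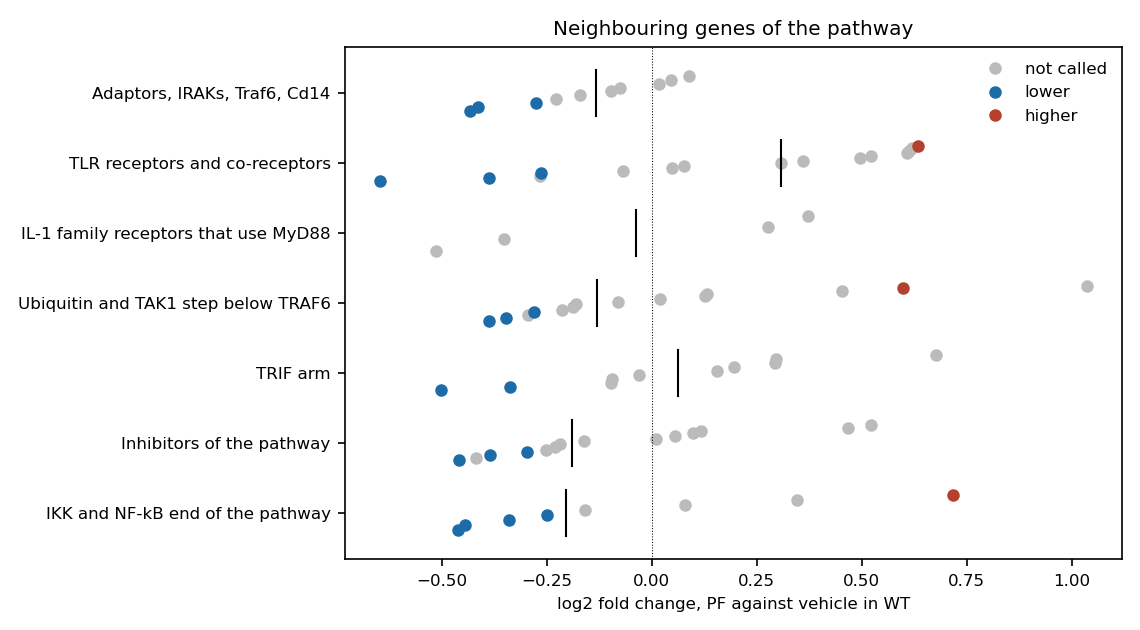
Log2 fold change with PF against vehicle in WT BMDMs for the members and for the tested genes of 6 lists around them. Each point is a gene, coloured by its call at an adjusted p of 0.05, and the vertical line is the median of the list. Values are with TMM alone, where the medians are -0.13 for the members, -0.20 for the IKK and NF-κB list and 0.31 for the TLR list. With the GC and length trend removed, the medians of these last lists are -0.09 and -0.03.

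Between genotypes with vehicle, 7 of 15 TLRs and co-receptors were higher and 2 were lower in AMPKβ1-/- BMDMs, against 29.7% higher and 30.0% lower over all genes tested. That balance depended on the GC trend: after its removal 2 were higher and 6 lower, and the median log2 change of the list went from 0.46 to 0.01. Tlr4, the receptor served by Cd14, Tirap and Ticam2, was at a mean of 13.4 CPM in WT and 44.6 CPM in AMPKβ1-/- BMDMs (log2 1.72 ± 0.245), and Ly96, its partner MD-2, at 1.79 and 4.55 CPM (log2 1.35 ± 0.310). With the GC and length trend removed Tlr4 stayed called (log2 0.52) and Ly96 did not (0.23). Cd14, the other part of the lipopolysaccharide receptor, was at log2 -0.24 with TMM and 0.05 with the trend removed. Sigirr, a receptor-like inhibitor of IL-1 and TLR signalling, was lower at 5.05 against 1.61 CPM (log2 -1.64 ± 0.251) and stayed called with the trend removed (-1.21). Among the 14 inhibitors 4 were higher and 5 lower, and 5 and 3 after removal of the trend. The 14 genes of the ubiquitin and TAK1 step gave 4 higher and 6 lower, and then 3 and 3. Of the 10 genes below Ticam1 6 were higher and 4 lower, and then 2 and 2, and of the 8 genes of the NF-κB end 2 and 3, and then 3 and 1. The counts with TMM are read against the same shares over all genes. Those with the trend removed are read against 1586 higher and 2165 lower of the 10822 genes tested. Nothing particular to the lists is drawn from them.

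With PF in both genotypes, 7 of the 15 TLRs and co-receptors were higher in AMPKβ1-/- BMDMs and 0 lower, against 24.1% and 22.9% over all genes tested. With the trend removed 3 were higher and 3 lower, against 1804 higher and 2291 lower of all 10822 genes tested in that setting. Tlr4 was at log2 1.63 ± 0.233 and Tlr2 at 0.30 ± 0.078, and both stayed called (0.52 and 0.38). Tlr8 (1.15 ± 0.231) and Cd36 (1.05 ± 0.213) did not (0.22 and -0.17). Of the 14 inhibitors 5 were higher and 4 lower in either setting, and of the 8 genes of the NF-κB end 3 and 0, and then 4 and 1. The ubiquitin and TAK1 step gave 4 and 5 of 14, and then 2 and 4. The 10 genes below Ticam1 gave 4 and 2 in either setting. These counts are read against the same shares. Dusp1 was higher by log2 1.01 ± 0.108 and Nfkb1, an NF-κB subunit gene, by 0.43 ± 0.079, and both also stayed called (1.25 and 0.50). Rel (1.04 ± 0.210), Peli1 (0.83 ± 0.183) and Tank (0.91 ± 0.206) did not (0.13, -0.27 and -0.29). Tollip, an inhibitor that binds Irak1, was lower (log2 -0.41 ± 0.068) and stayed so (-0.36). Il1rap, the co-receptor of the IL-1 family, was the single gene called among 4 in that list, higher with vehicle (log2 1.09 ± 0.306) and with PF (1.07 ± 0.283), and was not called once the trend was removed.

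Over the 12 libraries, the genes whose log2 CPM followed each PF-responsive member most closely were listed by Pearson correlation, as a description. For Ticam1 they were Myo7a (r = 0.99), Ccdc97 (0.99) and Fermt3 (0.98), whose GC contents were 56.3%, 58.3% and 57.9%, beside 56.4% for Ticam1. For Cd14, at 52.5% GC, they were Rps6ka1 (0.98), Cmtm7 (0.96) and Calhm2 (0.95), at 57.3%, 57.8% and 52.3%. For Irak3 they were the heat shock genes Hspa1b (0.96) and Hspa1a (0.94), near-identical copies whose reads are hard to tell apart, and the transporter Abcb4 (0.96). Their GC contents were 58.1%, 58.9% and 49.4%, beside 49.7% for Irak3. The points of each correlation share genotype, treatment, depth and GC trend.

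Other members also overlap neighbours in the GENCODE M21 models on GRCm38. Myd88 (chr9:119335934-119341411, minus strand) lies within a same-strand model of Slc22a14, not in the table, and faces Acaa1a over 1736 bases. Irak4 (chr15:94543643-94581815) faces Twf1 over 3865 bases, Irak3 (chr10:120141648-120202130) faces Tmbim4 over 541 bases and Tirap (chr9:35184551-35200291) faces Srpr over 117 bases. The library kit keeps strand, but the strand setting of the quantification is not given in the sources used here, so reads in these overlaps are uncertain.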

How the data were processed

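RNA of BMDMs was sequenced in 12 libraries of 4 groups. The authors used MultiQC for read quality, Trim Galore for trimming and Salmon for transcript quantification, and versions, build and bias options are not given in the sources used here. The deposited values are estimated counts from Salmon, summed per gene and listed as whole numbers without normalization. Groups were taken from the sample labels, and count columns were matched to groups by name, numbered 1 to 3 in each.

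Counts were tested in R 4.3.3 with edgeR 4.0.16 (robust quasi-likelihood, TMM, filterByExpr by group), in a fit of 4 group means to 12 libraries. A gene was called at a Benjamini-Hochberg adjusted p below 0.05. SE are the log2 fold change divided by the root of F. CPM are TMM-normalized, except those of cell type markers, which are scaled to library totals alone, and percent changes come from fitted folds. Length (longest protein-coding transcript) and GC content came from GENCODE M21, where 12703 symbols matched and 257 did not, so 10663 tested genes had both. The trend was fitted per library with splines of 5 degrees of freedom and used as an offset. Levels are precise to counting error and the spread of 3 libraries only.

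Alternatives were DESeq2 size factors, library size, other filters, DESeq2 1.42.0, limma-voom (limma 3.58.1), the 2 groups of a contrast alone, the GC offset, a replicate block and leaving out each library. Named genes are the 10 members, up to 4 called genes of each pathway list and contrast by smallest p, Prkab1, and the 3 genes most alike to each member called with PF. The members and lists were chosen with earlier results of these data known.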

Additional observations from a re-analysis of the deposited data

How the results depend on the processing

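Of 800 member values under alternatives, 742 kept their side of the threshold, 43 lost the call, 8 gained it and 7 reversed, with a call before or after. Among the 742 were 48 uncalled values that changed sign. No alternative called a member with PF in AMPKβ1-/- BMDMs or in the genotype difference of the response. With PF in WT, 3 members were lower, 0 in a fit to the 2 groups of the contrast alone, where Cd14 had an adjusted p of 0.0545, Ticam1 0.0735 and Irak3 0.156 by edgeR, and 1 to 4 with a library left out. That fit also called 422 genes in all, against 1725. With PF in AMPKβ1-/- BMDMs 6 genes were called in all, against 62 in a fit to those 2 groups, 49 with DESeq2 and 0 with library size alone. The GC offset called 795 genes with PF in WT.

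For AMPKβ1-/- against WT with vehicle, library size alone gave 5 higher and 1 lower members, Irak4 turning to a log2 of 0.21, and the GC offset gave 0 higher, with Myd88 at 0.062, Cd14 at 0.048, Tirap at -0.017, Traf6 at -0.34 and Ticam2 at -0.45. Leaving out a library gave 0 to 2 higher and 2 to 4 lower. With PF, library size alone gave 5 higher and 0 lower, the 2 groups alone 1 higher, leaving out a library 1 to 2 higher and 0 to 2 lower, and Traf6 was at -0.38 with the GC offset. The cause of these differences was not tested.

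The labels do not say whether numbers in the columns pair libraries. Deviations of same-numbered vehicle and PF libraries correlated between -0.17 and 0.32, which does not settle it with 3 libraries per group. With the number as a replicate block, 3 members were lower with PF in WT, and 1983 genes were called against 1725. No blocked fit changed a member's call.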
